A study of Mus musculus with 2 samples.

Results

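Subunits of the mitochondrial ribosome named Mrpl (large subunit) and Mrps (small subunit) were compared between thymus RNA of null and wild-type mice. The family was taken as every gene whose symbol begins with Mrpl or Mrps followed by a number, without regard to its values. It held 76 of the 16504 genes measured, 47 named for the large and 29 for the small subunit, read by 77 probe features. A further feature shared by Mrps25 and another gene was left out, and Mrpl19 and Mrpl48 had no feature of their own here.

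Mitochondria keep a small genome that encodes core subunits of the respiratory chain, and they translate it on ribosomes of their own. The RNA of these ribosomes is made inside the organelle, whereas all their proteins are encoded in the nucleus, made in the cytosol and imported. Part of the proteins descend from bacterial ribosomal proteins, and the rest were added during the evolution of mitochondria. Thymocytes, the developing T cells, need new mitochondrial ribosomes when they grow and divide.

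Null mice (-/-) lacked the gene studied and wild-type mice (+/+) carried it. Strain, age and sex are not given in the sources used here. Tissue is named as thymus in the labels and as thymocytes in the sample descriptions. For each genotype, RNA of 3 mice was combined in equal parts into 1 pool. Both pools were hybridised together on 2 two-colour arrays. The first array had null RNA in the dye Cy5 and wild-type RNA in Cy3, and the swapped array had the dyes exchanged. Both arrays read the same RNA and form 1 replicate, so variation among mice is unknown and no p-values were possible. An SD is the technical spread between the arrays, unless it is called a spread over genes. The table holds ratios without intensities, so levels could not be compared between genes, nor could markers of thymocytes be checked for their presence. In a mixed tissue, fewer cells of a type and less RNA per cell cannot be told apart.

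No mitochondrial ribosomal protein gene passed a size rule of 1.5-fold in 1 direction on each array, yet most of the family lay slightly above 0 in the null pool. All values are ratios of null to wild type on the log2 scale, where the rule corresponds to 0.585. None of the 76 members was called higher, where 0.412% of all genes were, and none was called lower, where 1.11% were. No member went opposite ways by 1.5-fold either, where 0.436% of all genes did. On both arrays, 49 members (64.5%) were above 0, against 25% of all genes, and 2 (2.63%) were below 0, again against 25%. The median of the members was 0.19, which is 1.14-fold, with 0.12 on the first array and 0.23 on the swapped array. The median of all genes was 0.00 on either array.

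The direction of these values is likely and not stated with the data. It follows the dyes named for the first array, and signs in the second column that the submitters had already turned its values. If both columns were raw ratios of Cy5 over Cy3, the median of the members would be -0.04 and 3 of them would lie above 0 on both arrays.

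**Figure D1:**
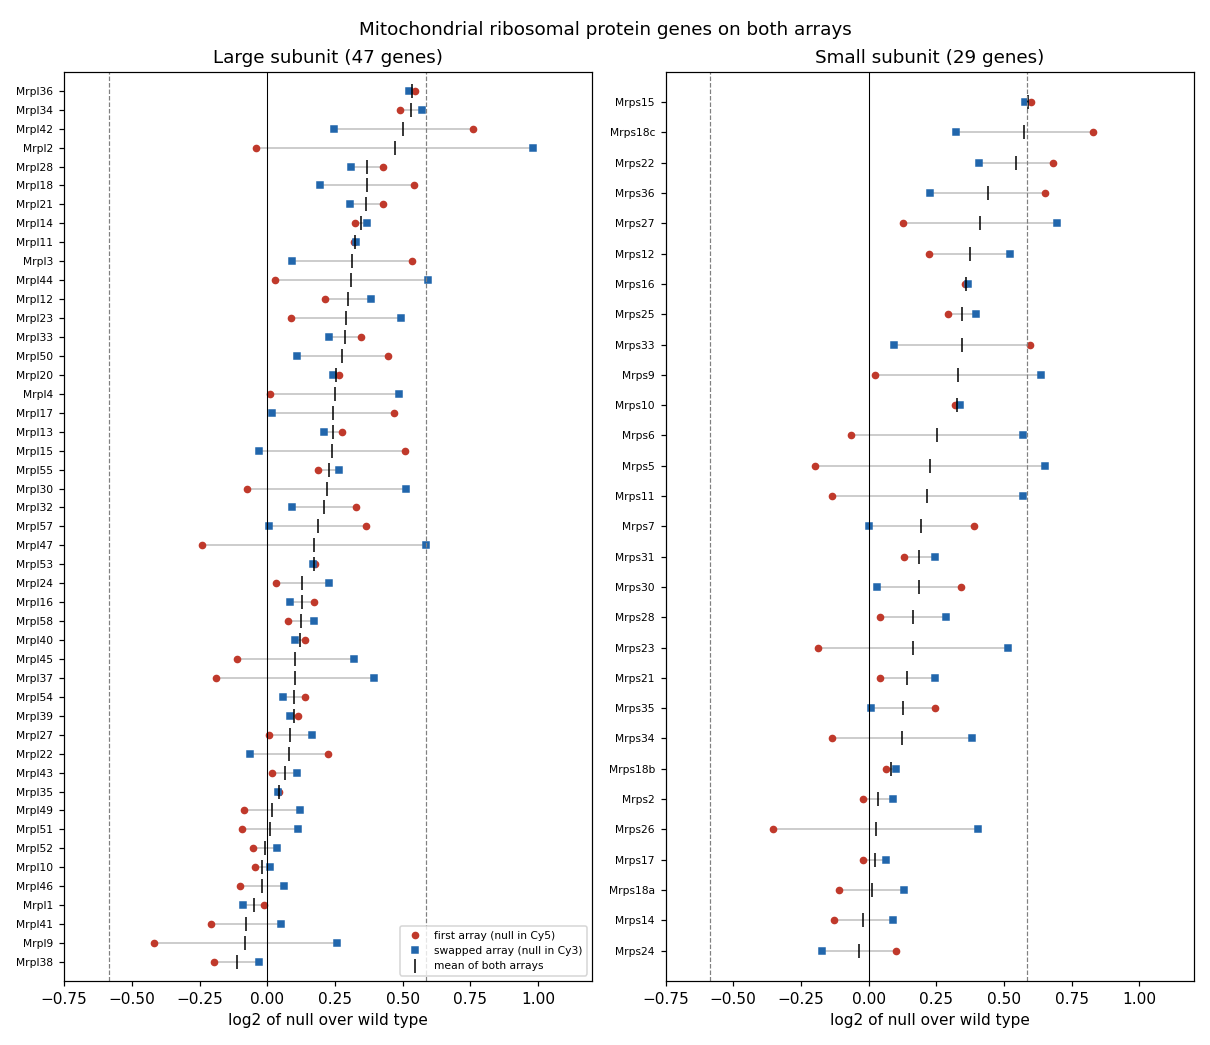
Log2 of null over wild type (horizontal axis) for the 47 large subunit genes (left) and the 29 small subunit genes (right). Red circles are the first array, blue squares the swapped array, black ticks their mean, and dashed lines mark 1.5-fold. Means run from -0.11 for Mrpl38 to 0.59 for Mrps15, and no gene has both points beyond a dashed line.

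At a lower bar of 25% on both arrays, or 0.32 on the log2 scale, 6 members were higher, a share of 7.89% beside 2.29% of all genes, and none was lower, beside 2.9% of all genes. The 6 were Mrps15, Mrps16, Mrps22, Mrpl14, Mrpl34 and Mrpl36. By the mean of the arrays, 35 members stood in the highest 10% of all genes and 56 in the highest 25%, while 3 stood in the lowest 25%. The spread of the members' means over genes was 0.17 (SD), with the middle 50% between 0.08 and 0.32, beside -0.08 and 0.09 for all genes.

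Mrps15, the counterpart of the bacterial protein S15, which binds the RNA of the small subunit, had the highest mean. It stood at 0.60 on the first array and at 0.58 on the swapped array, a mean of 0.59 (SD 0.01). Where a pair of values is given below, the first array comes first. The swapped array thus left it just short of the size rule. Mrps18c, a homologue of bacterial S18, stood at 0.83 and 0.32, so its mean of 0.57 (SD 0.36) rested more on the first array. Mrps22, which has no bacterial counterpart and is altered in inherited human mitochondrial disease, stood at 0.68 and 0.41, with a mean of 0.54 (SD 0.19). Both values were above 0, and the higher was again on the first array.

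The highest large subunit genes were Mrpl36 and Mrpl34, counterparts of the small bacterial proteins L36 and L34. Mrpl36 stood at 0.55 on the first array and 0.52 on the swapped array, a mean of 0.54 (SD 0.02) or 1.45-fold. Mrpl34 stood at 0.49 and 0.57, a mean of 0.53 (SD 0.06). For both genes the arrays lay closer together than for most members, whose median SD was 0.16. Mrpl42, found in mitochondria only, stood at 0.76 and 0.25 (mean 0.50, SD 0.36). Mrpl2, whose bacterial counterpart lies next to the site of peptide bond formation, differed most between the arrays. It stood at -0.04 on the first array and at 0.98 on the swapped array, so its mean of 0.47 (SD 0.72) came from 1 array.

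The sequence just upstream of such genes is shown for the highest 4 members that hold one of 4 searched motifs within 120 bases before and 30 bases after the annotated start. The sequences are from RefSeq, assembly GRCm38.p6, written 5′ to 3′ on the strand of the gene, with motif matches in capitals. The motifs were CCGGAAG (ETS factors such as GABPA), TGCGCA (NRF1), ATGGCGG (YY1) and CACGTG (the E-box of Myc and its relatives), each searched on both strands. Mrps22 lies at chr9:98601650-98601799 on the minus strand, Mrpl36 at chr13:73330889-73331038, Mrpl34 at chr8:71464806-71464955 and Mrps27 at chr13:99344666-99344815, the last 3 on the plus strand.
Mrps22: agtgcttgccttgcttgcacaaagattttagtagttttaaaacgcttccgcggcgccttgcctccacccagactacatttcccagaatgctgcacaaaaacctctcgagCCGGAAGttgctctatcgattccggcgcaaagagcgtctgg
Mrpl36: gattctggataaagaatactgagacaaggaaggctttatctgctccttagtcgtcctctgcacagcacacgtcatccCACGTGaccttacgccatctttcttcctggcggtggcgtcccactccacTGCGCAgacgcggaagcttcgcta
Mrpl34: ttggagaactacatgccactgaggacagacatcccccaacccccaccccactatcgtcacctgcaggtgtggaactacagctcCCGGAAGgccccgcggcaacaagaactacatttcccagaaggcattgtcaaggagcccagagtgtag
Mrps27: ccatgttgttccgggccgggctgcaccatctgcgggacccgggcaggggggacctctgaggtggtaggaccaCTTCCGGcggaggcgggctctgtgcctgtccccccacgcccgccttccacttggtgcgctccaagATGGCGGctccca
Mrps22 and Mrpl34 each show the ETS letters, Mrpl36 the E-box and NRF1 letters, and Mrps27 the ETS letters on the other strand and the YY1 letters. A match is a description of the sequence and does not show that a factor binds.

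Other small subunit genes with high means were Mrps36, Mrps27 and Mrps12. Mrps36 stood at 0.65 on the first array and 0.23 on the swapped array (mean 0.44, SD 0.30). Its product, though named for the ribosome, is known as a component of the 2-oxoglutarate dehydrogenase complex. Mrps27, a protein with pentatricopeptide repeats that binds mitochondrial RNA, had the opposite pattern, with 0.13 and 0.70 (mean 0.41, SD 0.40). Mrps12, the counterpart of the decoding protein S12, stood at 0.22 and 0.52 (mean 0.37, SD 0.21). All 3 genes were above 0 on both arrays.

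In the large subunit, 4 counterparts of bacterial proteins followed with means within a narrow range. Mrpl28 stood at 0.43 and 0.31 (mean 0.37, SD 0.08). Mrpl21 stood at 0.43 and 0.30 (mean 0.37, SD 0.09). These 2 genes were alike in being a little higher on the first array. Mrpl18 stood at 0.54 and 0.19 (mean 0.37, SD 0.25). Mrpl14, which lies at the face towards the small subunit, stood at 0.33 and 0.37 (mean 0.35, SD 0.03). Each of the 4 lay above 0 on both arrays and under 1.5-fold on each.

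The stalk that recruits translation factors did not show 1 common value. Mrpl11, at the base of the stalk, stood at 0.32 and 0.33 (mean 0.32, SD 0.01). Mrpl12, the stalk protein itself, which is also known to bind the mitochondrial RNA polymerase, stood at 0.22 and 0.38 (mean 0.30, SD 0.12). Mrpl10, which anchors Mrpl12, stood at -0.05 and 0.01 (mean -0.02, SD 0.04). Mrpl11 and Mrpl12 were picked for their place beside Mrpl10 after their values were seen.

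Proteins around the exit of the peptide tunnel, taken by their place in the ribosome and after their values were seen, had means from 0.08 to 0.29. Mrpl22 stood at 0.22 and -0.06 (mean 0.08, SD 0.20), Mrpl23 at 0.09 and 0.49 (mean 0.29, SD 0.29) and Mrpl24 at 0.03 and 0.23 (mean 0.13, SD 0.14). Mrpl47, the counterpart of bacterial L29, stood at -0.24 and 0.59 (mean 0.17, SD 0.58). Mrpl45, which tethers the ribosome to the inner membrane, stood at -0.11 and 0.32 (mean 0.10, SD 0.31). Mrpl17 stood at 0.47 and 0.02 (mean 0.24, SD 0.32) and Mrpl32 at 0.33 and 0.09 (mean 0.21, SD 0.17). Of these 7 genes, 4 were higher on the swapped array and 3 on the first, and 3 changed sign between the arrays.

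Some of the members gave nearly the same value on both arrays, with a gap under 0.05 in 12 of the 76. Mrps16, the counterpart of S16, stood at 0.36 and 0.37 (mean 0.36, SD 0.01), and Mrps10, the counterpart of S10, at 0.32 and 0.34 (mean 0.33, SD 0.01). Mrpl20 stood at 0.27 and 0.24 (mean 0.26, SD 0.02), Mrpl53 at 0.18 and 0.17 (mean 0.17), and Mrpl35 at 0.05 and 0.04 (mean 0.04). At the other end, the arrays differed by more than 1.5-fold in 10 members. Neither this count nor that of small gaps was made over all genes. The median SD between the arrays was 0.16 over the members and 0.12 over all genes. Mrps5, the counterpart of S5, stood at -0.20 and 0.65 (mean 0.23, SD 0.60), and Mrps9, the counterpart of S9, at 0.02 and 0.64 (mean 0.33, SD 0.43). The genes named in this comparison of the arrays were chosen after their values were seen. Without those 10 members, the medians of the large and the small subunit were both 0.19.

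The lowest member was Mrpl38, a protein of the large subunit's central protuberance that is found in mitochondria only. It stood at -0.20 and -0.03, a mean of -0.11 (SD 0.12). Mrpl38 and Mrpl1, the counterpart of the stalk protein L1, were the 2 members below 0 on both arrays, and Mrpl1 stood at -0.01 and -0.09 (mean -0.05, SD 0.05). The median SD between the arrays was 0.16 over the members. Mrpl9, the counterpart of L9, stood at -0.42 and 0.26 (mean -0.08, SD 0.48), so its arrays lay on opposite sides of 0. Mrpl41, found in mitochondria only, stood at -0.21 and 0.05 (mean -0.08, SD 0.18). Mrpl9 and Mrpl41 were thus both low on the first array and above 0 on the swapped array. Mrpl46, also of the central protuberance, stood at -0.10 and 0.06 (mean -0.02, SD 0.11). Mrpl52 (mean -0.01, SD 0.06) and Mrpl51 (mean 0.01, SD 0.15) completed the 8 lowest large subunit genes, and both changed sign between the arrays.

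Among small subunit genes the lowest was Mrps24, the counterpart of bacterial S3 at the entry of the messenger RNA channel. It stood at 0.10 and -0.17 (mean -0.04, SD 0.19). Mrps14, the counterpart of S14, stood at -0.13 and 0.09 (mean -0.02, SD 0.15). Mrps17 stood at -0.02 and 0.07 (mean 0.02, SD 0.06), and Mrps2 at -0.02 and 0.09 (mean 0.03, SD 0.08). Mrps26, found in mitochondria only, spread far wider, at -0.35 and 0.41 (mean 0.03, SD 0.54). No small subunit gene lay below 0 on both arrays.

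The 3 homologues of bacterial S18 did not have like values. Mrps18c was among the highest members, as given above. Mrps18b stood at 0.07 and 0.10 (mean 0.08, SD 0.02). Mrps18a, which despite its name sits in the large subunit of the mammalian ribosome, stood at -0.11 and 0.13 (mean 0.01, SD 0.17). Mrps18c thus lay above both others on each array. Mrps30, also a large subunit protein despite its name, stood at 0.34 and 0.03 (mean 0.19, SD 0.22). Mrpl40, the only member with 2 features, had feature means of 0.27 and -0.03, both designed on 1 transcript record. The gap between the features was larger than that between the arrays, and the gene's average was 0.12 (SD 0.03).

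The medians of the large and the small subunit genes differed by less than the spread between the arrays. The large subunit (47 genes) had a median of 0.19. Its medians by array were 0.14 on the first array and 0.17 on the swapped array (SD 0.02), both below 0.19. The small subunit (29 genes) had a median of 0.19, with 0.10 and 0.32 by array (SD 0.16). An SD of a group median is that of the group's medians by array. The difference, large minus small, was -0.01 (SD 0.13), and it changed sign between the arrays, from 0.04 on the first array to -0.15 on the swapped array. On both arrays, 31 large subunit genes (66%) and 18 small subunit genes (62.1%) lay above 0. With Mrps18a and Mrps30 moved to the large subunit and Mrps36 left out of both, the difference was -0.02. With 1 pool per genotype, no test of this difference was possible.

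**Figure D2:**
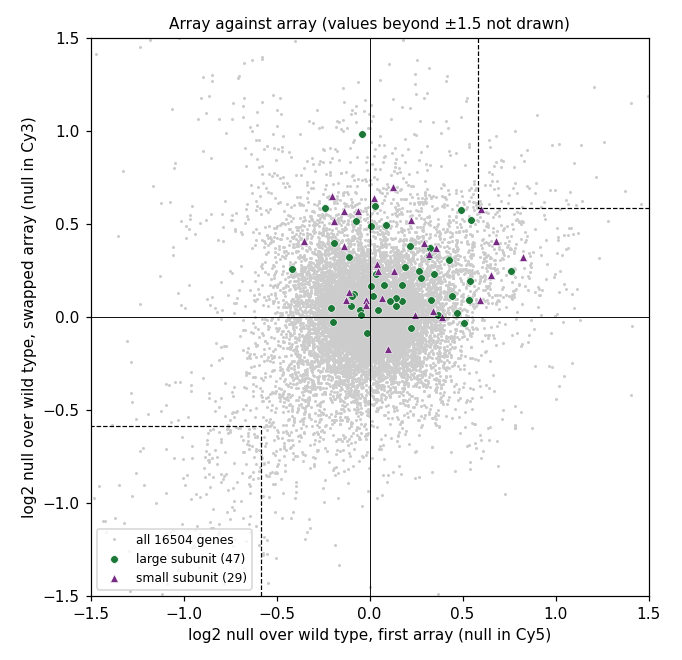
Each gene's log2 of null over wild type on the first array (horizontal) and on the swapped array (vertical). Grey dots are all 16504 genes, green circles the 47 large and purple triangles the 29 small subunit genes, and dashed corners mark 1.5-fold on both arrays. Members fill the upper right quadrant (49 genes) and the upper left (22 genes), and none reaches a corner.

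Members classed with a bacterial counterpart had a median of 0.24 (47 genes), and members classed as found in mitochondria only a median of 0.12 (29 genes). Mrpl55 (mean 0.23) was counted in the first class. By array the medians were 0.17 and 0.26 with a counterpart (SD 0.06), and 0.11 and 0.12 without (SD 0.01). The class with a counterpart thus had the higher median on both. This held in the large subunit, at 0.22 and 0.24 with (29 genes) and 0.02 and 0.11 without (18 genes). In the small subunit the order was reversed on each array, at 0.04 and 0.30 with (18 genes) and 0.25 and 0.38 without (11 genes). By the mean of the arrays the small subunit medians were 0.21 with and 0.19 without. No test of these differences between the classes was possible with 1 pool per genotype.

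The arrays differed for many members. Of the 76 members, 25 lay on opposite sides of 0, a smaller share than the 50% of all genes. Of these, 22 were above 0 on the swapped array only and 3 on the first array only. Counted by array, 52 members were above 0 on the first array and 71 on the swapped array. On each array, 6 members reached 1.5-fold (7.89%), beside 2.31% of all genes on the first array and 2.92% on the swapped array. They were different genes. On the first array they were Mrpl42, Mrps15, Mrps18c, Mrps22, Mrps33 and Mrps36, and on the swapped array Mrpl2, Mrpl44, Mrpl47, Mrps5, Mrps9 and Mrps27. The part of each value that changes sign with the dyes, taken as 0.5 times the gap between the first and the swapped array, had a median of -0.04 over the members and 0.01 over all genes.

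The other genes of mitochondrial translation were read from lists. Of 7 listed ribosomal proteins that carry other names, 4 were measured and none was called. Their median was 0.17, with 0.25 on the first array and 0.02 on the swapped array. Chchd1, a small subunit protein, was highest (0.42 and -0.01, mean 0.21), and Ptcd3, a small subunit protein with pentatricopeptide repeats, was lowest (0.03 and -0.01, mean 0.01).

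Among 14 measured factors of mitochondrial translation none was called, 9 were above and none below 0 on both arrays, and the median was 0.19 (arrays 0.08 and 0.18). Slirp, an RNA-binding partner of Lrpprc that stabilises mitochondrial messenger RNA, was highest at 0.74 and 0.49 (mean 0.61, SD 0.18). Mtfmt, which formylates the initiator methionine, was lowest at 0.03 and -0.17 (mean -0.07, SD 0.14). Of 20 genes for charging mitochondrial transfer RNA, none was called, 9 were above and 2 below 0 on both arrays, and the median was 0.11 (arrays 0.09 and 0.10). Kars, the lysyl-tRNA synthetase of both the cytosol and mitochondria, was highest at 0.46 and 0.68 (mean 0.57, SD 0.15), and Vars2 lowest at -0.08 and -0.15 (mean -0.11, SD 0.06).

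Genes that build and modify the mitochondrial ribosome had values on both sides of 0. Of 24 measured, none was called, 5 were above and 4 below 0 on both arrays, and the median was 0.02 (arrays -0.02 and 0.06). Pnpt1, an exoribonuclease, was highest at 0.45 and 0.21 (mean 0.33, SD 0.17). Tfb1m, which methylates the RNA of the small subunit, was lowest at -0.35 and -0.16 (mean -0.25, SD 0.13). The 14 genes of mitochondrial DNA replication and transcription had a median of 0.02 (arrays 0.01 and 0.02) and no call. Mgme1, a nuclease of mitochondrial DNA, stood at 0.59 and 0.56 (mean 0.57, SD 0.02), and Polg, the catalytic subunit of the DNA polymerase, at -0.35 and 0.00 (mean -0.17, SD 0.25).

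Protein import, which brings all ribosomal proteins into the organelle, had a median of 0.26 over 24 genes (arrays 0.29 and 0.21), with 19 above and none below 0 on both arrays. The 2 called genes were Hspe1, the co-chaperonin of the matrix, at 0.94 and 0.62 (mean 0.78, SD 0.22), and Timm8a1, a chaperone of the intermembrane space, at 0.77 and 0.69 (mean 0.73, SD 0.06).

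**Figure D3:**
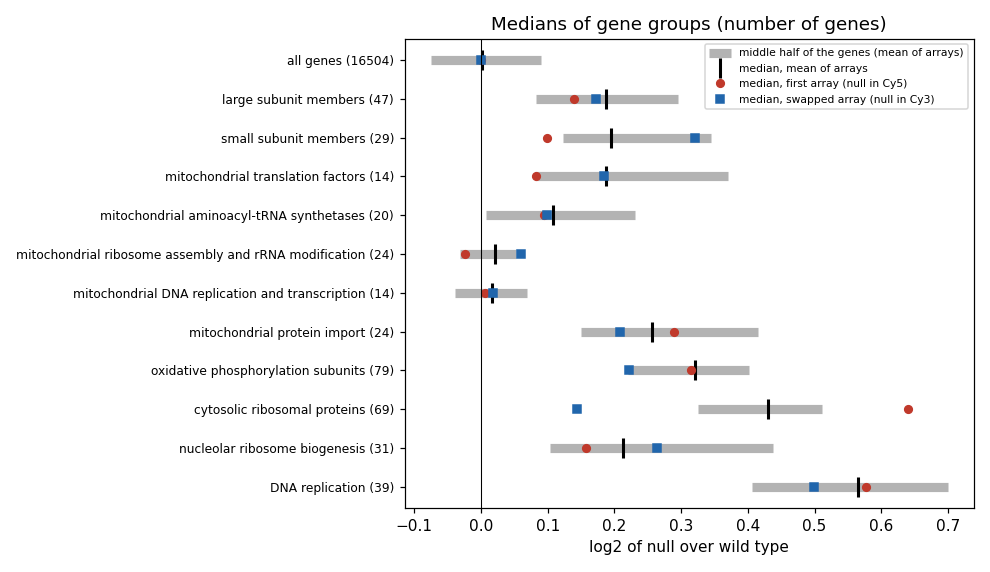
Medians of log2 of null over wild type for gene groups, with the number of genes in parentheses. Grey bars span the middle 50% of the genes, black ticks are medians of the mean of the arrays, red circles the first array and blue squares the swapped array. Both subunits (0.19) lie above all genes (0.00) and below the cytosolic ribosomal proteins (0.43), whose 2 arrays lie farther apart (0.64 and 0.14) than those of the other groups drawn.

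Cytosolic ribosomal proteins and the subunits of oxidative phosphorylation had higher medians than the family by the mean of the arrays. The 69 cytosolic ribosomal protein genes had a median of 0.43 (arrays 0.64 and 0.14), and the 79 subunits of oxidative phosphorylation one of 0.32 (arrays 0.31 and 0.22). None of either group was called. Above 0 on both arrays were 49 cytosolic ribosomal protein genes (71%) and 61 oxidative phosphorylation genes (77.2%). On the first array the family's median of 0.12 lay below both. On the swapped array its 0.23 lay above the 0.14 of the cytosolic ribosomal proteins and just above the 0.22 of oxidative phosphorylation. No test of these differences was possible with 1 pool per genotype.

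Regulators known to act on genes for mitochondrial proteins had values on both sides of 0. Myc, a transcription factor of growth, was higher at 1.26 and 0.94 (mean 1.10, SD 0.23) and was the 1 call among 10. Pprc1, a coactivator of the same family as Ppargc1a, stood at 0.40 and 0.32 (mean 0.36, SD 0.06). Ppargc1a and Ppargc1b both had means of 0.10 (SD 0.04 each). Tfam, which packs mitochondrial DNA and takes part in its transcription, also had a mean of 0.10 (SD 0.07). The ETS, NRF1 and YY1 factors were not called, with Nrf1 at -0.12 and 0.09 (mean -0.02), Gabpa at -0.07 and 0.17 (mean 0.05), Gabpb1 at -0.15 and 0.03 (mean -0.06), and Yy1 at -0.17 and -0.19 (mean -0.18, SD 0.01). Esrra, a nuclear receptor of mitochondrial genes, was lowest at -0.20 and -0.37 (mean -0.28, SD 0.12).

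In the promoters of the members, 3 of the 4 motifs had a share whose interval lay above the share in protein-coding genes on the array, members included. RefSeq windows of 250 bases before to 50 bases after the start were found for 68 of the 76 members, 71 windows in all, of which Mrpl2 has 3 and Mrps16 has 2. CCGGAAG was in 35.2% of them (95% Wilson interval 25.1 to 46.8), beside 12.9% of 16210 windows of protein-coding genes on the array and 8.86% of all 32851 windows. TGCGCA was in 31% (21.4 to 42.5), beside 10.9% and 7.76%. ATGGCGG was in 18.3% (11 to 28.8), beside 5.87% and 4.05%. CACGTG was in 9.86% (4.86 to 19), near the 8.77% and 7.15% of the others. Its 7 windows belonged to 5 members, and 3 of them were those of Mrpl2. No 2 different motifs overlapped in a member's window, and 21 windows held none of the 4. The median GC content was 58.7% in the members' windows and 58.3% in those of protein-coding genes on the array.

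**Figure D4:**
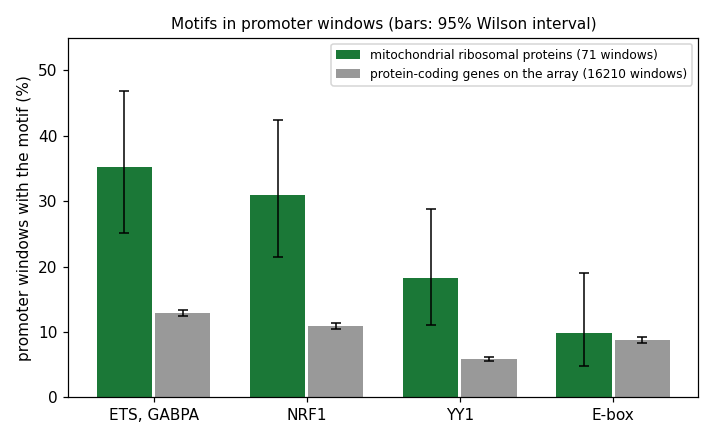
Percent of promoter windows that hold each motif, for 71 windows of mitochondrial ribosomal protein genes (green) and 16210 windows of protein-coding genes on the array (grey), with 95% Wilson intervals. The ETS, NRF1 and YY1 motifs stand at 35.2%, 31% and 18.3% in the family, each above the grey bar, and the E-box at 9.86% beside 8.77%.

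The values of members with and without each motif are set side by side as a description. With CCGGAAG (25 members) the median was 0.19, and without it (43 members) 0.21. With TGCGCA (21 members) it was 0.19, and without it 0.22. The 13 members with ATGGCGG had a median of 0.10 (SD over genes 0.13), and the 55 without it 0.23 (SD over genes 0.18). The 5 with CACGTG, which were Mrpl2, Mrpl20, Mrpl36, Mrpl37 and Mrps18c, had a median of 0.47 (SD over genes 0.20), and the 63 without it 0.19 (SD over genes 0.16). Those 5 ranged from 0.10 for Mrpl37 to 0.57 for Mrps18c, and the means of Mrpl2 and Mrps18c rested mainly on 1 array each.

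Genes of cell division and markers of other cell types were also measured. Over all genes, 0.412% were called higher, 1.11% were called lower and 25% lay above 0 on both arrays. Of 39 DNA replication genes, 5 were called higher, 36 were above 0 on both arrays, and the median was 0.57. The 31 nucleolar ribosome biogenesis genes had a median of 0.21, and 1 was called higher. Of 18 markers of macrophages and dendritic cells, 3 were called lower (Cd74, Ctss and H2-Eb1), and the medians on the arrays were -0.22 and -0.15. By the mean of the arrays their median was -0.11, with 14 below and 4 above 0, among the latter Adgre1, Itgam, Mrc1 and Cd163. Of 13 B cell markers 3 were called lower (arrays -0.16 and -0.06), of 14 markers of thymic epithelium 3 (arrays -0.06 and -0.20) and of 14 markers of fibroblasts and endothelium 1 (arrays -0.06 and -0.05). Of 11 neutrophil markers 4 were called higher (arrays 0.26 and 0.48), and none of 8 erythroid markers was called (arrays 0.09 and 0.00). At the bar of 25% on both arrays, 2 erythroid markers were lower (Hba-a1 and Alas2), while 3 lay above 0 on both. The part of these shifts in the values of the family was not tested.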

How the data were processed

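The deposited table gives 1 log ratio per feature and array. The submitters' processing notes name Agilent Feature Extraction 7.1, run with default settings per the series' design text. Hybridisation lasted 17 h, with 750 ng of cRNA in each dye. The authors' values were taken as log10 ratios, the convention of that software, and converted to log2. The log base, centring and direction are not stated. The medians of the 2 columns were -0.00141 and 0.00112, so no centring was added. Zeros are written 0 in the first column (80 values) but -0 in the second (82 values), so the second was read as already turned.

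Of 22393 features, 18218 had 1 gene symbol in the platform annotation, 16 several and 4159 none. Symbols of 18175 features were updated by gene ID through RefSeq (GRCm38.p6), and features of a gene were averaged. No source used here names the genome build behind the array. The gene studied is not reported here.

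Calls need 1.5-fold in 1 direction on both arrays. Precision is limited by the number of arrays, and how far each signal stood above background is unknown. The call rule was tested on simulated data, but the changes placed there were larger than the mean of any member. That test therefore does not cover changes of the size seen in the family. Named were the 8 highest and 8 lowest large subunit genes, the 6 highest and 6 lowest small subunit genes, members below 0 on both arrays, members with several features, Mrps18a, Mrps18b, Mrps18c, Mrps30 and Mrps36, called list genes or otherwise each list's highest and lowest gene, and all regulators. Other members were named after their values were seen. The members, lists and rules were chosen with earlier results of these data known. Class and subunit come from the established nomenclature, apart from the class of Mrpl55. Intervals of motif shares cover counting error only. Python 3.11.15, numpy 2.4.6, pandas 2.3.3 and matplotlib 3.10.9 were used. Alternatives were centring, each array alone, the sign of the second column, the largest feature, the log base, platform symbols, subunits by place in the ribosome, a limit on the dye term, other thresholds and a shorter ETS motif.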

Additional observations from a re-analysis of the deposited data

How the results depend on the processing

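No paired analysis was possible because both arrays carry 1 pool per genotype, which gives no test. Centring, platform symbols, the largest feature and subunits by place in the ribosome left every count of calls, subunit median and the family's median within the spread between the arrays or within 1.5 times, and so did the limit to 66 members whose arrays differ by less than 1.5-fold. Each array alone called 6 members higher, and a threshold of 25% on both arrays also called 6, where 1.5-fold on both called 0. The median of the large subunit was 0.14 on the first array alone, and the difference of the subunits -0.15 on the swapped array alone. The difference of the subunits changed sign, within the spread between the arrays, on the first array alone (0.04), with the largest feature (0.01) and with raw ratios (0.03). With both columns read as raw ratios, 3 members were above 0 on both arrays, and the medians were -0.022 for the large subunit, -0.054 for the small subunit and -0.040 for all members, since that reading turns the sign of the second column. With the values read as log2 in place of log10, the medians of the large subunit and of all members were 0.056 and 0.0575, by construction. The raw reading moved 47 of 76 members by more than 1 SD, the log2 reading 29 and the largest feature 1. The ETS share of the members' windows was 54.9% with CGGAAG, a shorter motif that matches more often by construction. The depth of single spots is unknown, since the table holds no intensities.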
